A study of Mus musculus with 10 samples.

Results

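Features changed alike in both DIDO3 mutant lines were collected from RNA sequencing (RNA-seq) of mouse embryonic stem cells (ESC). A feature is the 3′UTR of 1 UCSC transcript with 2 kb added downstream of its annotated end, and its level is given in TPM, a unit that corrects for feature length and library size. Of 43031 features, 9497 were eligible: they were free of bases shared with other features of the same strand and exceeded 1 TPM in every library of at least 1 group. A feature was taken as changed alike when the group mean of log2(TPM + 0.1) differed from WT by at least 0.7 in the same direction in both lines, with the 3 values of each line outside the WT range. This rule found 503 features (5.3% of those eligible), 407 of them higher in both lines and 96 lower. The features were thus chosen by their measured TPM in all 9 libraries, so their differences from WT are given as a description, with no test, and both differences rest on the same WT libraries.

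The groups were WT ESC, DIDO3ΔE16 ESC and DIDO3ΔCT+HADIDO3 ESC, each with 3 libraries. DIDO3ΔE16 cells lost the floxed DIDO3-specific exon 16 through a SOX2-Cre transgene in the mice they came from, and were established as homozygous ESC. DIDO3ΔCT+HADIDO3 cells carry a constitutive deletion of the DIDO3 C terminus in the same exon and were reconstituted with HA-tagged DIDO3, so the lines differ in both allele and added protein. The labels give strain C57BL/6 for all groups, and the cells were grown with LIF and serum on mouse embryonic fibroblasts or on gelatin; which surface was used for which library is not stated in the sources used here. WT replicates 2 and 3 carry the same library name and were counted as 1 library, WT replicate 2-3. The library names of WT replicates 1 and 4 begin with C7A9 and those of all other libraries with C79M. These groups are called flow cell families here, which is inferred from the names alone. Nothing in the labels says that libraries of a group came from separate cultures, so p-values measure only the spread between these libraries. Values below are in the order of WT replicates 1, 2-3 and 4 and of mutant replicates 1, 2 and 3. Feature coordinates are those of mm10.

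Depth and cell identity were checked once for all libraries. Bases in features came to 1.46 to 2.61 Gb per library, and a level of 1 TPM equalled only 0.434 to 0.775-fold coverage, so features near 1 TPM rest on few reads. The end of the exon 16 form of Dido1 (uc008ojq.2) had 17.9, 16.8 and 13.7 TPM in WT, 0.546, 0.511 and 0.307 in DIDO3ΔE16 and 12.1, 11.5 and 10.9 in DIDO3ΔCT+HADIDO3, so the libraries labelled DIDO3ΔE16 had the least. All 13 ESC markers were above 1 TPM in every library, with summed levels of 6883 to 7896 TPM in WT, 8903 to 9329 in DIDO3ΔE16 and 6912 to 8883 in DIDO3ΔCT+HADIDO3. Single libraries differed by more than 2 times from both others of their group at 4 of these markers: Pou5f1 had 168, 180.4 and 484 TPM in WT, Nanog had 664, 676 and 3.10 TPM in WT, Sall4 had 286, 4.72 and 269.7 in WT, and Esrrb had 30.7, 1176 and 29.8 in WT and 1947, 51.4 and 1729 in DIDO3ΔCT+HADIDO3. None of the 4 has a feature changed alike. Summed feeder fibroblast markers were 171 to 217 TPM in WT, 400.3 to 418 in DIDO3ΔE16 and 179 to 185 in DIDO3ΔCT+HADIDO3, where 10 of the 20 markers stayed below 1 TPM. The Y-linked genes Eif2s3y, Kdm5d and Uty were listed at 0 in all 3 DIDO3ΔCT+HADIDO3 libraries and were above 3 TPM in all 6 others. In bulk RNA, fewer cells of a type and less RNA per cell cannot be told apart.

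DIDO3 is the largest protein of the Dido1 gene and associates with RNA polymerase II and chromatin. Mouse ESC cultures are a mixture: a small and changing fraction of cells transiently expresses genes of the cleavage-stage embryo, such as Zscan4 and the Tcstv genes, and other cells show low levels of primitive endoderm genes such as Gata6, Sox7 and laminin and collagen IV chains. The features changed alike include members of both gene groups, the first among the higher and the second among the lower features.

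Promoter sequences are shown for the Zscan4 genes, because they are a cluster of near-identical copies that lay together among the higher features. Promoters of RefSeq (GRCm38.p6, from 250 bases before to 50 bases after the start site) matched 274 genes with higher features and 73 with lower ones. Of 25 letter patterns searched on both strands after the levels were known, the letters TGATT followed by any 2 bases and ATCA were found in 4 of the 309 promoters of higher genes (1.29%), in 0 of 86 of lower genes, in 0.114% of those of eligible genes and in 0.207% of all 32851 promoters. All 4 belong to Zscan4 genes. The windows of 30 bases read 5′ to 3′ on the strand of the gene, with the match, which lies on the opposite strand, in capitals:
Zscan4b: caggaggttTGATAGAATCActgtgtgaat
Zscan4c: caggagtttTGATAGAATCActgtgtgaat
Zscan4d: caggaggttTGATAGAATCActgtgtgaat
Zscan4f: aaggagtttTGATAGAATCActgtgtgaat
They lie at chr7:10905121-10905150 (reverse strand), chr7:11005622-11005651 (forward), chr7:11166253-11166282 (reverse) and chr7:11397815-11397844 (forward). The match starts 91, 114, 125 and 91 bases before the start site, and the windows of Zscan4b and Zscan4d are identical while the others differ by 1 or 2 bases. A match is a description of these letters only. With the second of the free bases fixed as A, the pattern was in 0 promoters of higher or lower genes and in 11 of all promoters.

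Higher features outnumbered lower ones: 4.29% of eligible features were higher in both lines and 1.01% lower. By the same rule in a single line, 13.9% were higher and 5.95% lower in DIDO3ΔE16, and 16.4% were higher and 8.02% lower in DIDO3ΔCT+HADIDO3. The median log2 difference of the higher features was 1.53 in DIDO3ΔE16 and 1.35 in DIDO3ΔCT+HADIDO3, and that of the lower features −1.10 and −1.37; over all eligible features it was 0.01 and 0.09. The smaller of both differences was at least 1 in 251 higher and 48 lower features, and at least 2 in 27 and 5. Against WT, limma called 312 of the higher features higher in DIDO3ΔE16, where 8.4% of all features tested were called higher, and 281 in DIDO3ΔCT+HADIDO3, where 8.03% were. It called 85 of the lower features lower in DIDO3ΔE16 (4.24% of all) and 84 in DIDO3ΔCT+HADIDO3 (5.85% of all). Among eligible features, 16.1% and 19.8% were called in either direction. The rule used these same contrasts, so nothing is read from the counts.

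**Figure D1:**
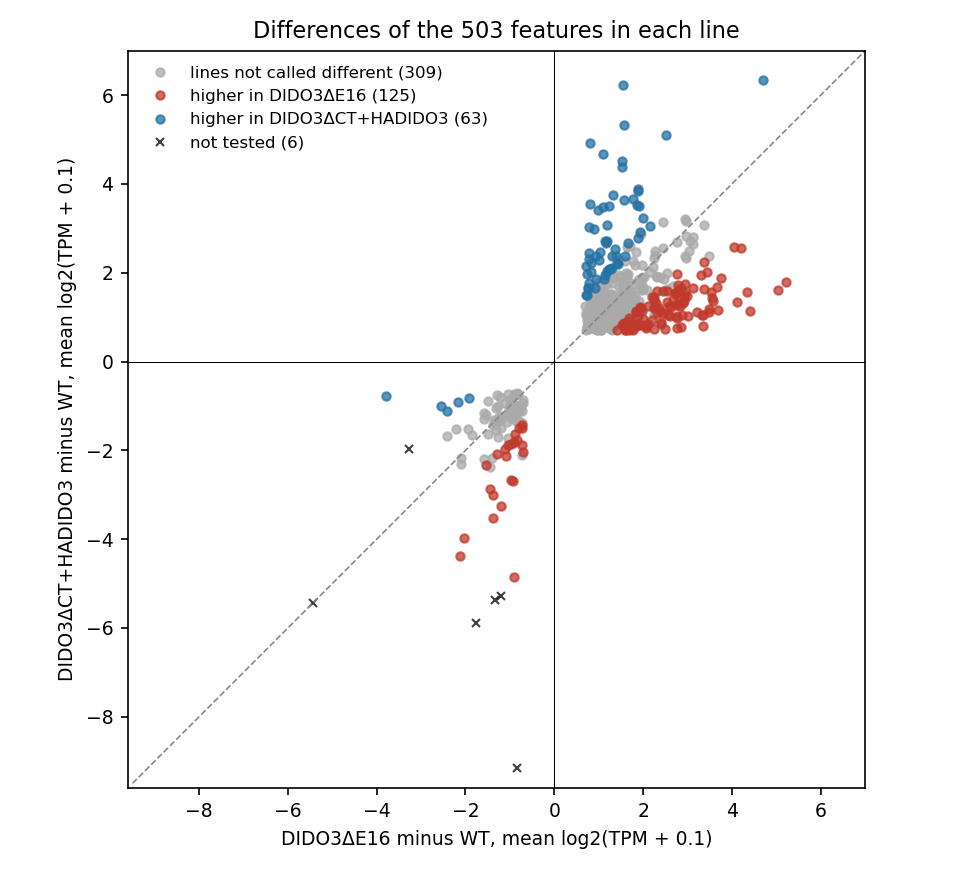
Each point is 1 of the 503 features changed alike, with its mean log2(TPM + 0.1) relative to WT in DIDO3ΔE16 (x axis) and in DIDO3ΔCT+HADIDO3 (y axis); the dashed line marks equal differences, and colours give the direct comparison of both lines by limma. The 125 features higher in DIDO3ΔE16 lie below the dashed line and the 63 higher in DIDO3ΔCT+HADIDO3 above it; 309 were not called and 6 could not be tested.

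Most higher features were of low level in WT. Their median WT level was 1.23 TPM, against 9.85 for the lower features and 14.4 for all eligible ones. Among 725 eligible features with a mean WT level below 1 TPM, 171 (23.6%) were higher in both lines. These features were eligible only through a mutant group, so they had to differ, and the median log2 difference of all 725 was 1.35 in DIDO3ΔE16 and 0.87 in DIDO3ΔCT+HADIDO3. In all, 211 of the 407 higher features did not exceed 1 TPM in every WT library, and 17 of the 96 lower features passed that filter in WT alone. At 100 TPM or more in WT, 3 of 1295 eligible features were higher and 13 lower.

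**Figure D2:**
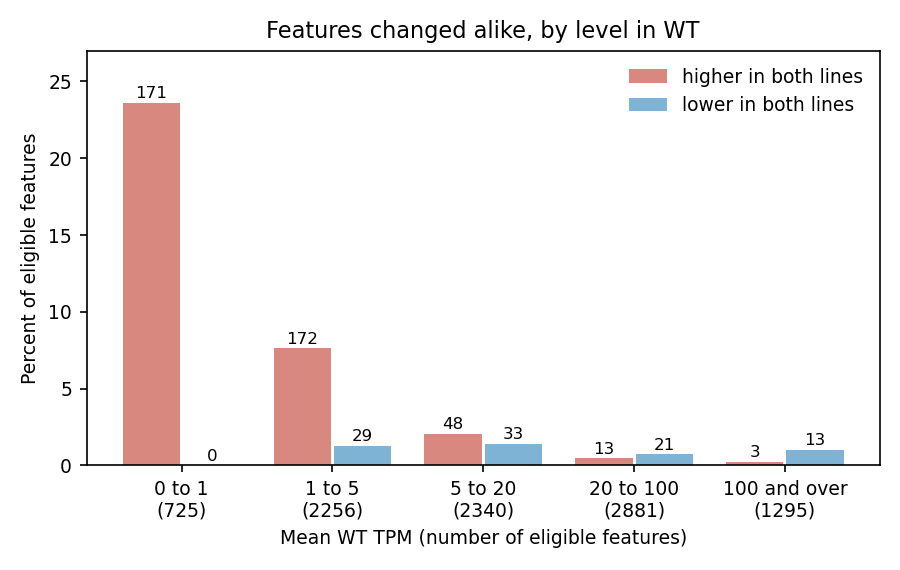
Percent of eligible features higher (red) or lower (blue) in both lines, by mean WT level in TPM, with the number of eligible features in parentheses and the number of features over each bar. The share of higher features falls from 23.6% below 1 TPM to 0.232% at 100 TPM and over, while lower features make up at most 1.41% of any class.

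The first 14 higher features with a symbol were ranked by the smaller of both differences. Rfx8 (chr1:39663301-39665462), of the regulatory factor X family, was first with 0.028, 0.134 and 0 TPM in WT, 3.03, 3.74 and 4.3 in DIDO3ΔE16 and 11.1, 10.4 and 13.5 in DIDO3ΔCT+HADIDO3. Its log2 differences from WT were 4.70 and 6.34, and they depend on the 0.1 added to values near 0. Ceacam16 (chr7:19850097-19852302), a glycoprotein of the tectorial membrane of the inner ear, had 0.457, 0.266 and 0.468 TPM in WT, 4.41, 5.12 and 5.43 in DIDO3ΔE16 and 4.33, 4.24 and 3.5 in DIDO3ΔCT+HADIDO3. The DIDO3ΔE16 libraries of Ceacam16 lay just above the DIDO3ΔCT+HADIDO3 ones, by 0.32 ± 0.15 on the log2 scale (SE; adjusted p = 0.157, Benjamini-Hochberg, limma). Crocc2, a relative of the ciliary rootlet protein rootletin, had 0.381, 0.188 and 0.435 TPM in WT, 3.15, 3.11 and 3.13 in DIDO3ΔE16 and 3.96, 3.94 and 3.45 in DIDO3ΔCT+HADIDO3. Lrrc27, which encodes a leucine-rich repeat protein, had 0.527, 1.09 and 0.411 TPM in WT, 5.0, 5.37 and 6.39 in DIDO3ΔE16 and 7.88, 6.22 and 5.36 in DIDO3ΔCT+HADIDO3. The mutant groups of Lrrc27 overlapped, and those of Crocc2 did not, with DIDO3ΔCT+HADIDO3 higher. The direct log2 difference of Crocc2 was −0.25 and was not called (adjusted p = 0.153, Benjamini-Hochberg, limma). Gm5662 and Gm8300, also among the 14, are described with the cleavage-stage genes.

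Sspo and Rprml differed more in DIDO3ΔE16. SCO-spondin (Sspo), a large protein secreted into the cerebrospinal fluid, had 0.146, 0 and 0.11 TPM in WT, 4.44, 2.94 and 2.29 in DIDO3ΔE16 and 1.01, 0.95 and 0.819 in DIDO3ΔCT+HADIDO3. Rprml, a relative of the cell cycle inhibitor reprimo, had 0.346, 0 and 0.125 TPM in WT, 3.0, 4.45 and 3.1 in DIDO3ΔE16 and 0.801, 1.64 and 1.26 in DIDO3ΔCT+HADIDO3. In both genes the 3 DIDO3ΔE16 libraries lay above all DIDO3ΔCT+HADIDO3 libraries, which lay above WT. Both exceeded 1 TPM throughout DIDO3ΔE16 alone, so their difference between the lines was in part set by the minimum level. The mutants were in the opposite order at Kbtbd11 (chr8:15029305-15035332), a kelch and BTB domain protein, with 1.9, 1.93 and 1.72 TPM in WT, 7.09, 14.8 and 12.6 in DIDO3ΔE16 and 66.8, 66.3 and 66.5 in DIDO3ΔCT+HADIDO3. Fhad1, a forkhead-associated domain protein, had 0.214, 0.409 and 0.051 TPM in WT, 2.27, 2.39 and 2.6 in DIDO3ΔE16 and 1.46, 1.95 and 1.75 in DIDO3ΔCT+HADIDO3. The predicted gene C130026I21Rik had 0.972, 1.05 and 1.33 TPM in WT, 11.7, 9.03 and 9.4 in DIDO3ΔE16 and 7.66, 7.6 and 8.21 in DIDO3ΔCT+HADIDO3.

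The other features of this first group rest on shared or partial sequence. Tmem181b-ps (uc008agr.2), a pseudogene of the transmembrane protein Tmem181 family, had 4.62, 12.1 and 4.56 TPM in WT, 39.9, 82.2 and 39.3 in DIDO3ΔE16 and 43.7, 45.9 and 47.1 in DIDO3ΔCT+HADIDO3. WT replicate 2-3 and DIDO3ΔE16 replicate 2 stood above the other libraries of their groups there, as they did at its neighbour Dynlt1b (36.7, 71.8 and 32.6 TPM in WT and 123, 213 and 98.2 in DIDO3ΔE16). Both belong to a repeated block, so reads can be split between copies. Gm21762 was at 0.275, 0 and 0.146 TPM in WT, 2.26, 1.96 and 1.15 in DIDO3ΔE16 and 1.02, 1.69 and 1.44 in DIDO3ΔCT+HADIDO3. The feature of the nucleoside diphosphatase Entpd4 (uc029slf.1) held 3.8% of the summed level of its gene, with 0.113, 0.004 and 0.134 TPM in WT, 1.05, 1.15 and 1.04 in DIDO3ΔE16 and 1.18, 0.969 and 0.93 in DIDO3ΔCT+HADIDO3, and only 1 base of it is annotated 3′UTR.

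**Figure D3:**
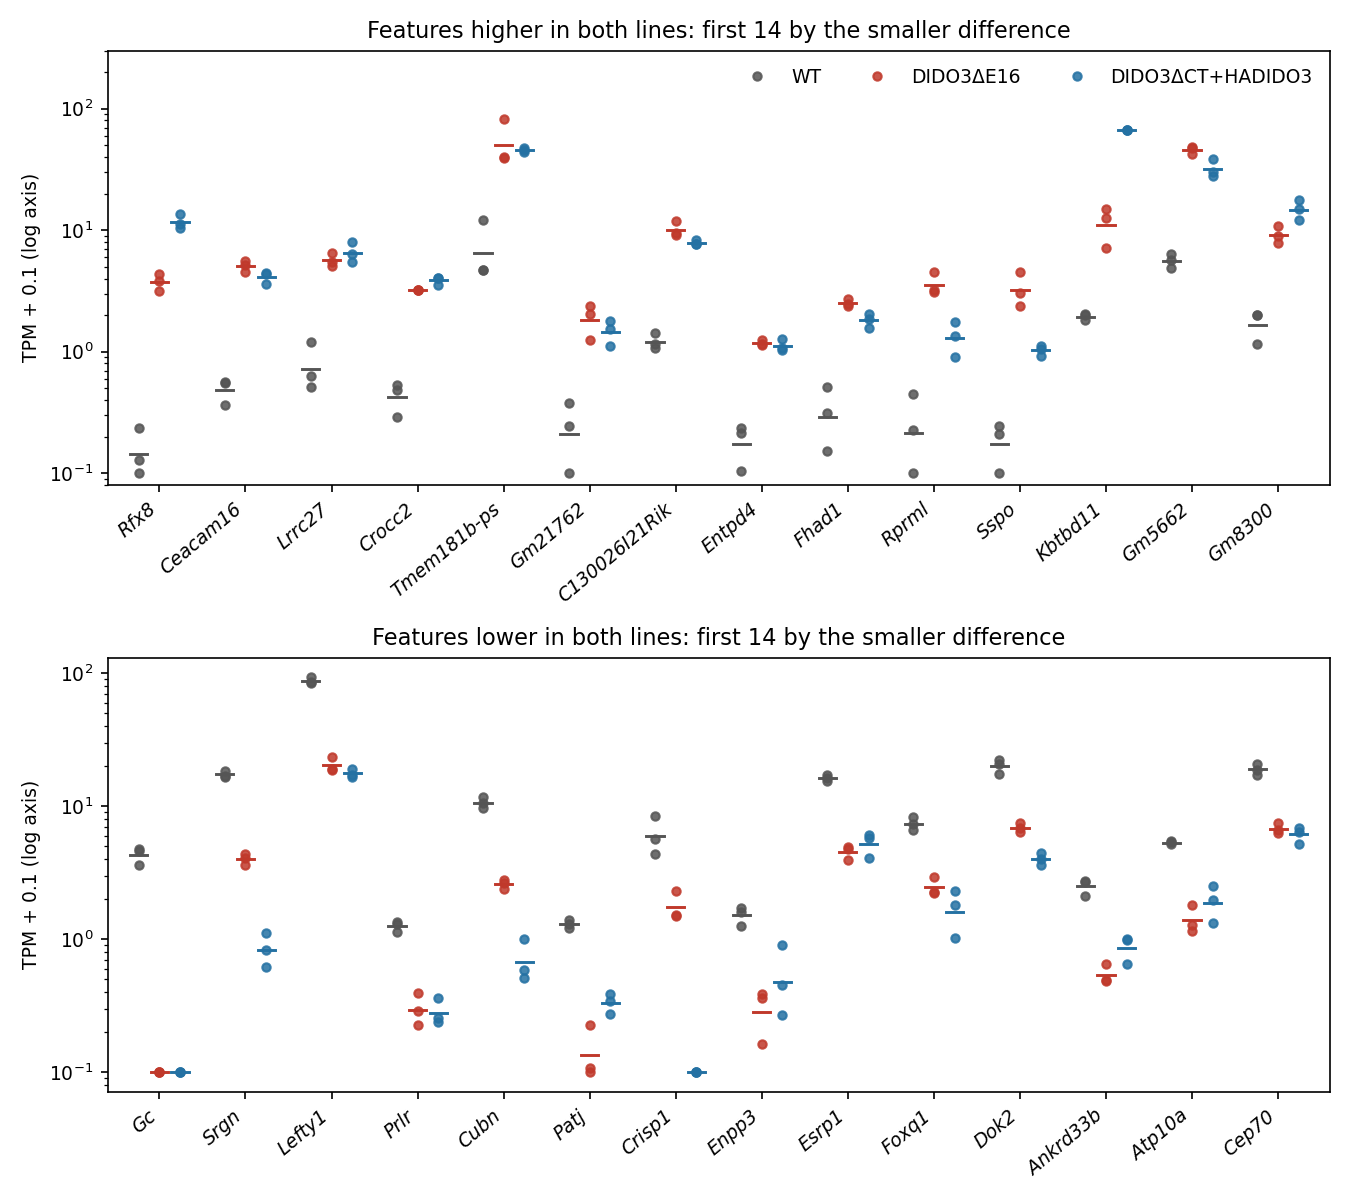
TPM + 0.1 on a log axis in each of the 9 libraries for the first 14 higher features (top) and the first 14 lower features (bottom); points are libraries and bars the mean of the logarithms in WT, DIDO3ΔE16 and DIDO3ΔCT+HADIDO3. No mutant library enters the WT range, as the rule requires, and the mutant groups part clearly at Rfx8 and Kbtbd11 (higher) and at Srgn and Cubn (lower).

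Genes of the cleavage-stage (two-cell) program were well represented among the higher features. Of 21 genes of this list with an eligible feature, 13 were higher in both lines (61.9%) and 0 were lower, where 4.84% of all 7957 eligible genes were higher and 1.14% lower. The median log2 difference over the 21 genes was 2.28 in DIDO3ΔE16 and 1.20 in DIDO3ΔCT+HADIDO3. Many are recent duplicates, so the genes do not count as independent and the split of reads between copies is uncertain. The 4.84% covers genes of all levels. Higher features made up 23.6% of eligible features below 1 TPM in WT and 7.62% at 1 to 5 TPM. Tcstv3, Zfp352 and Gm2022 did not exceed 1 TPM in every WT library, so they were eligible only through a mutant group. The histone, germ line, zinc finger and channel lists below are likewise set beside genes of all levels.

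Zscan4 proteins are zinc finger factors involved in telomere maintenance in ESC. Zscan4a, with Zscan4b the most abundant of the list (chr7:10792241-10795233), had 13.8, 12.9 and 13.7 TPM in WT, 100.5, 91.8 and 79.2 in DIDO3ΔE16 and 37.8, 39.8 and 39.3 in DIDO3ΔCT+HADIDO3. Zscan4b had 15.2, 17.4 and 18.6 TPM in WT, 90.7, 85.3 and 74 in DIDO3ΔE16 and 39.5, 44 and 44 in DIDO3ΔCT+HADIDO3. In both genes every DIDO3ΔE16 library exceeded every DIDO3ΔCT+HADIDO3 library, and the direct log2 difference between the lines was 1.23 ± 0.10 for Zscan4a (SE; adjusted p = 0.000726, by limma, after Benjamini-Hochberg) and 0.99 ± 0.09 for Zscan4b (adjusted p = 0.00118). Zscan4c, whose promoter window is shown above, had 4.72, 4.73 and 4.25 TPM in WT, 31.8, 23.6 and 23.1 in DIDO3ΔE16 and 16.5, 16.4 and 18 in DIDO3ΔCT+HADIDO3. Zscan4d had 3.26, 2.47 and 2.58 TPM in WT, 15.8, 15.4 and 15.4 in DIDO3ΔE16 and 8.91, 7.76 and 8.78 in DIDO3ΔCT+HADIDO3. Zscan4f had 5.51, 4.11 and 6.86 TPM in WT, 32.8, 26.1 and 22.7 in DIDO3ΔE16 and 18.6, 21.8 and 21.9 in DIDO3ΔCT+HADIDO3. Of these 3 genes Zscan4d was called higher in DIDO3ΔE16 than in DIDO3ΔCT+HADIDO3 (0.89 ± 0.08, adjusted p = 0.00121, limma, Benjamini-Hochberg adjusted), and Zscan4c and Zscan4f were under the fold threshold of the call.

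Tcstv1 and Tcstv3, which encode small proteins of the cleavage stage, were the most unequal toward DIDO3ΔE16 among the genes of the list changed alike. Tcstv1 (chr13:119891387-119893578) had 1.14, 1.33 and 1.71 TPM in WT, 9.52, 11.1 and 9.06 in DIDO3ΔE16 and 2.29, 2.51 and 2.37 in DIDO3ΔCT+HADIDO3, a direct difference of 2.02 ± 0.11 (adjusted p = 0.000298, Benjamini-Hochberg, limma). Tcstv3 had 0.575, 0.242 and 0.381 TPM in WT, 3.51, 3.42 and 3.02 in DIDO3ΔE16 and 0.755, 1.01 and 1.44 in DIDO3ΔCT+HADIDO3. Usp17lc, a deubiquitinating enzyme of the Dub family, had 3.82, 3.06 and 3.33 TPM in WT, 19.7, 17.4 and 16.5 in DIDO3ΔE16 and 8.51, 8.91 and 6.52 in DIDO3ΔCT+HADIDO3. Zfp352, a zinc finger gene of the cleavage stage, was low throughout, at 0.471, 0.544 and 0.707 TPM in WT, 3.52, 2.55 and 2.43 in DIDO3ΔE16 and 1.42, 1.36 and 1.66 in DIDO3ΔCT+HADIDO3. The homeobox gene Lmx1a had 1.1, 1.31 and 1.07 TPM in WT, 3.88, 3.76 and 4.09 in DIDO3ΔE16 and 2.27, 2.14 and 2.36 in DIDO3ΔCT+HADIDO3. All 5 genes were called higher in DIDO3ΔE16 than in DIDO3ΔCT+HADIDO3. Tcstv3 exceeded 1 TPM throughout DIDO3ΔE16 alone, so its difference between the lines was in part set by the minimum level. The call of Zfp352 was lost without DIDO3ΔCT+HADIDO3 replicate 1 (0.87) or replicate 2 (0.83), and with 1 added to TPM in place of 0.1 the differences of Zfp352 (0.63) and Lmx1a (0.60) were under the threshold.

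The copies of an Eif1a-like gene on chromosome 12 differed in their order. Gm5662 had 5.59, 4.83 and 6.22 TPM in WT, 48.2, 47.7 and 42.2 in DIDO3ΔE16 and 27.8, 30.1 and 38.2 in DIDO3ΔCT+HADIDO3, so DIDO3ΔE16 was higher. Gm8300 had 1.89, 1.07 and 1.91 TPM in WT, 10.7, 8.81 and 7.72 in DIDO3ΔE16 and 11.9, 14.9 and 17.7 in DIDO3ΔCT+HADIDO3, with the higher values in DIDO3ΔCT+HADIDO3. Gm2022 had 0.704, 1.08 and 1.07 TPM in WT, 2.68, 2.87 and 3.36 in DIDO3ΔE16 and 10.4, 12.6 and 16.3 in DIDO3ΔCT+HADIDO3, and was the 1 gene of the list called higher in DIDO3ΔCT+HADIDO3 (−2.07 ± 0.19 for DIDO3ΔE16 minus DIDO3ΔCT+HADIDO3, adjusted p = 0.00112, by limma, after Benjamini-Hochberg). In total 8 of the 13 were called higher in DIDO3ΔE16, among them Tcstv3, whose difference was in part set by the minimum level. That direction was called in 11.9% of all features tested. It was called in 11.1% of eligible features above 1 TPM in every library of both lines. Among all 407 higher features 102 were called in that direction. The 8 genes of the list that were not changed alike include Pramef25, with log2 differences of 2.31 and −0.33, and the homeobox gene Obox6 with 0.80 and −4.10.

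**Figure D4:**
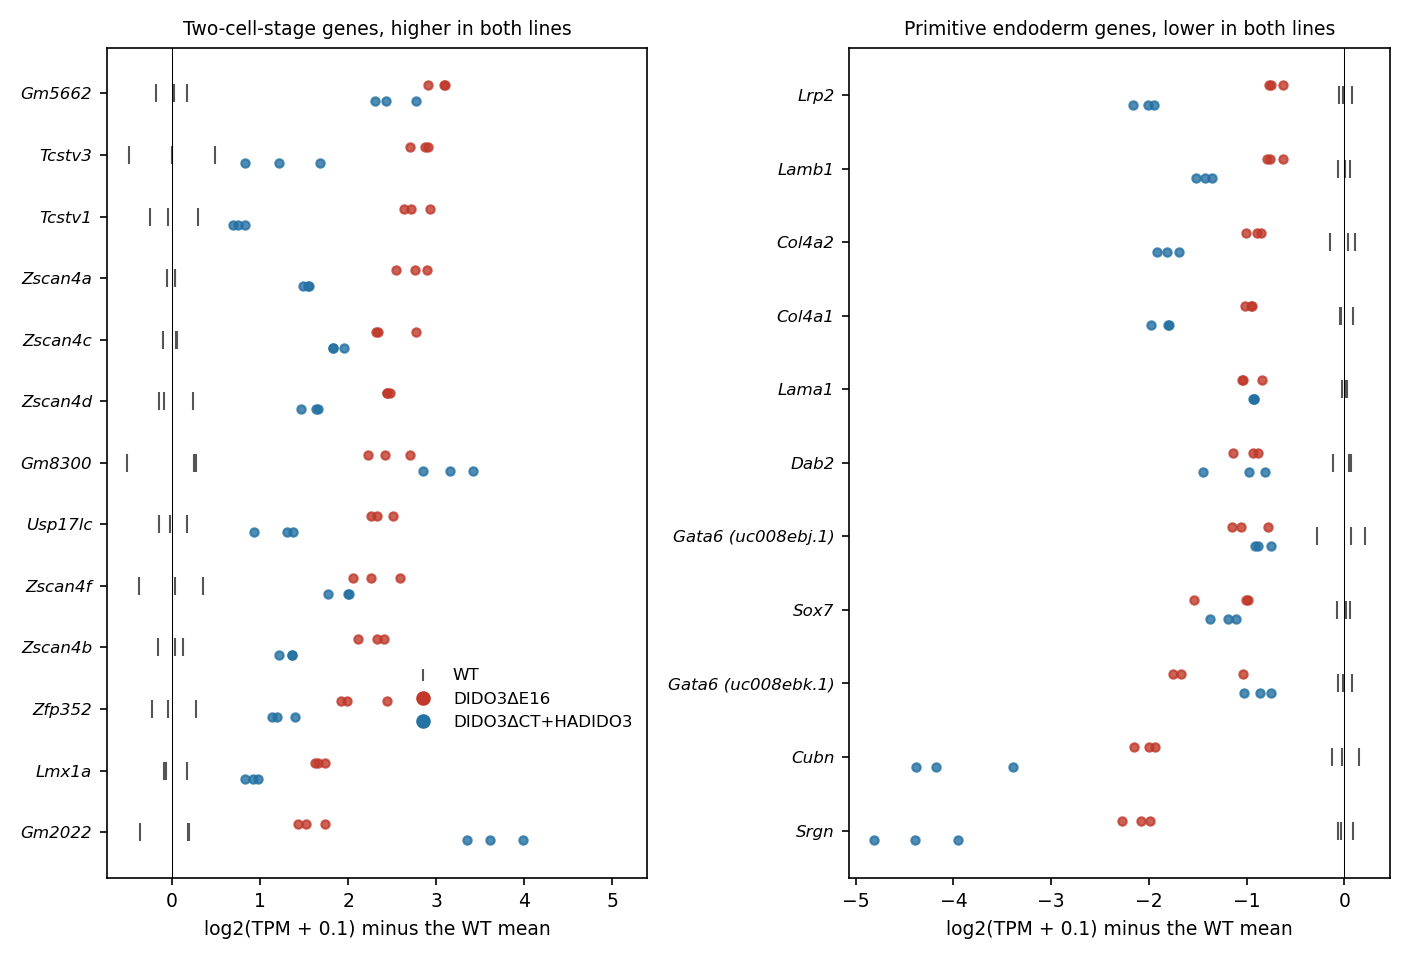
Log2(TPM + 0.1) of each library minus the WT mean for the two-cell-stage genes higher in both lines (left) and the primitive endoderm features lower in both lines (right); ticks are WT libraries and points mutant libraries. Most two-cell-stage genes lie farther from WT in DIDO3ΔE16, with Gm2022 and Gm8300 the other way, while Srgn, Cubn and Lrp2 lie farther from WT in DIDO3ΔCT+HADIDO3.

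Several of these genes are neighbours. Allowing steps of up to 200 kb, 14 runs of at least 3 features changed alike were found, and the features in them were all higher. Higher features made up 80.9% of those changed alike, so nothing is read from this direction. The runs at Zfr2, Dnaic2, Ttbk1 and Tmem181b-ps count a gene more than once. On chromosome 12, 5 of 7 eligible features from 87517332 to 87898722 were higher (Gm8300, Gm4027, BB287469, Gm2016 and Gm2022). On chromosome 7, Zscan4a, Zscan4b, Zscan4c and Zscan4d made up 4 of 4 eligible features from 10792241 to 11161920, and Ceacam16, Gm19345 and Ceacam20 made up 3 of 6 from 19850097 to 19993111. On chromosome 13, D13Ertd608e, Tcstv1, Gm21761 and B020031M17Rik were 4 of 4 from 119846528 to 119949546, and Gm21762, BC147527 and Tcstv3 were 3 of 3 from 120212595 to 120320261. On chromosome 17, 5 of 6 features from 6435968 to 6612947 belonged to Dynlt1b, Tmem181b-ps and 2 transcripts without a symbol. The other runs lie at Zfr2 and Matk, Gucy2e to Wrap53, Dnaic2 and Kif19a, the Hist1 genes, 4933427E11Rik to Gml2, Ttbk1 and Cul9, Cd27 to Tnfrsf1a, and Isoc2b to Gm45133.

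Histone genes were the next list by share: 9 of 17 with an eligible feature were higher in both lines (52.9%, against 4.84% of all eligible genes) and 0 lower, with a median log2 difference of 0.90 in DIDO3ΔE16 and 1.29 in DIDO3ΔCT+HADIDO3. Replication-dependent histone messages end in a stem-loop without a poly(A) tail, and nearly all of each such feature is the added 2 kb. Hist1h1c, a linker histone and the most abundant of these, had 9.42, 10.2 and 10.5 TPM in WT, 18.7, 18.5 and 24.1 in DIDO3ΔE16 and 36.7, 32.7 and 30.8 in DIDO3ΔCT+HADIDO3. Hist2h3c1, an H3 gene, had 2.12, 2.64 and 2.0 TPM in WT, 6.57, 8.0 and 7.63 in DIDO3ΔE16 and 7.59, 6.42 and 10.2 in DIDO3ΔCT+HADIDO3, so the mutant groups overlapped. The H4 gene Hist1h4k had 3.55, 3.45 and 2.91 TPM in WT, 5.68, 5.77 and 7.4 in DIDO3ΔE16 and 7.06, 8.56 and 9.05 in DIDO3ΔCT+HADIDO3. The others (Hist2h4, Hist1h4j, Hist1h2ah, Hist1h2bf, Hist1h3c and Hist1h2bk) had no library above 8.05 TPM. Hist2h4 was called higher in DIDO3ΔCT+HADIDO3 and Hist1h2bk in DIDO3ΔE16, and the call of Hist1h2bk was lost without any 1 of the 6 mutant libraries (0.81 to 1.19). Levels of near-identical histone copies are uncertain.

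Germ line and meiosis genes gave 9 higher genes of 31 (29.0%, against 4.84% of all eligible genes) and 1 lower gene, with a median log2 difference over the list of 0.71 and 0.22. Syce1, a central element protein of the synaptonemal complex, had 14.7, 33.5 and 15.3 TPM in WT, 103, 121 and 119.8 in DIDO3ΔE16 and 77.5, 78.1 and 78 in DIDO3ΔCT+HADIDO3. Its WT replicate 2-3 lay above the other WT libraries and still below every mutant library. Sohlh2, a transcription factor of early germ cells, had 27, 28.8 and 27.6 TPM in WT, 64.2, 55.2 and 62.2 in DIDO3ΔE16 and 88.9, 93.2 and 101 in DIDO3ΔCT+HADIDO3. Hsf2bp, which acts with BRCA2 in meiotic recombination, had 39.5, 35.4 and 38.5 TPM in WT, 63.8, 66.7 and 69 in DIDO3ΔE16 and 76.5, 77.5 and 79.8 in DIDO3ΔCT+HADIDO3. In both genes the mutant groups did not overlap, with DIDO3ΔCT+HADIDO3 highest, but neither was called different between the lines. The RNA-binding germ cell gene Dazl is represented by a feature with 22.8% of its summed level, at 7.16, 8.41 and 9.46 TPM in WT, 15, 15.3 and 14.5 in DIDO3ΔE16 and 13.6, 16.4 and 16.2 in DIDO3ΔCT+HADIDO3. Tex13b, an X-linked testis gene, separated the lines, with 2.5, 1.46 and 1.91 TPM in WT, 3.96, 4.25 and 4.47 in DIDO3ΔE16 and 49.7, 53.6 and 51.6 in DIDO3ΔCT+HADIDO3. Tuba3a, Brdt, Slc25a31 and Mov10l1 were also higher, and all of them stayed below 10 TPM. Other genes of the list lay on opposite sides of WT in the lines, among them the Xlr family genes Xlr3c (log2 differences 4.72 and −2.27), Xlr3b (2.54 and −5.69), Xlr3a (2.14 and −5.68), Xlr5a (3.14 and −5.35) and Xlr4a (2.34 and −3.95), which are near-identical copies. The lower gene was Cyct, the testis cytochrome c, with 17, 15.7 and 15.2 TPM in WT, 7.34, 8.62 and 9.22 in DIDO3ΔE16 and 7.18, 7.91 and 9.42 in DIDO3ΔCT+HADIDO3.

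Of 199 zinc finger genes 14 were higher in both lines (7.04%, against 4.84% of all eligible genes), 6 of them from the cleavage-stage list above, and 0 were lower. Zfp990 had the highest level of all features changed alike and higher, with 180.0, 169 and 135 TPM in WT, 297, 311 and 314 in DIDO3ΔE16 and 544, 563 and 643 in DIDO3ΔCT+HADIDO3. Zfp640 had 109, 110.0 and 93.2 TPM in WT, 227, 217 and 212 in DIDO3ΔE16 and 254, 254 and 279 in DIDO3ΔCT+HADIDO3. In both features 1 base is annotated 3′UTR and the rest is the added 2 kb. Zfp229 had 35.2, 31 and 31.1 TPM in WT, 71.1, 76.4 and 74 in DIDO3ΔE16 and 71, 70.1 and 81 in DIDO3ΔCT+HADIDO3, with overlapping mutant groups. The remaining ones (Zkscan16, Zfp287, Zfp108, Zfp316 and Zfp783) stayed below 9 TPM. Among 391 predicted genes with an eligible feature, 50 were higher (12.8%) and 4 lower.

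Ion channel and receptor genes of neurons gave 4 higher genes of 12 (33.3%, against 4.84% of all eligible genes), while the list had median log2 differences of −0.09 in DIDO3ΔE16 and 0.80 in DIDO3ΔCT+HADIDO3. Grik3, a kainate receptor subunit, had 34.1, 32.4 and 32.6 TPM in WT, 109.6, 111 and 113 in DIDO3ΔE16 and 99.2, 99 and 98.8 in DIDO3ΔCT+HADIDO3, with little spread inside each group. P2rx3, an ATP-gated channel of sensory neurons, had 1.76, 2.16 and 2.21 TPM in WT, 7.99, 14.5 and 14.7 in DIDO3ΔE16 and 2.73, 4.08 and 3.73 in DIDO3ΔCT+HADIDO3. The melastatin channel Trpm1, at a feature with 22.1% of its summed level, had 0.438, 0.106 and 0.589 TPM in WT, 3.94, 6.03 and 4.58 in DIDO3ΔE16 and 1.66, 1.31 and 0.713 in DIDO3ΔCT+HADIDO3. P2rx3 and Trpm1 were called higher in DIDO3ΔE16 than in DIDO3ΔCT+HADIDO3, and Grik3 was under the fold threshold. Trpm1 exceeded 1 TPM throughout DIDO3ΔE16 alone, so its difference between the lines was in part set by the minimum level. The fourth, the calcium channel subunit Cacna2d2, had a log2 difference of 0.77 and 0.98 at a feature with 27.1% of its summed level. At the most abundant features of these genes the differences were 4.05 and 0.02 for Trpm1 and 0.58 and −0.73 for Cacna2d2.

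Fewer genes of the other lists were higher. The WNT ligand Wnt6 had 1.33, 1.12 and 0.909 TPM in WT, 5.42, 4.42 and 6.0 in DIDO3ΔE16 and 4.94, 5.13 and 4.34 in DIDO3ΔCT+HADIDO3, and the secreted inhibitor Sfrp5 had 4.52, 2.62 and 1.58 TPM in WT, 5.99, 5.87 and 5.58 in DIDO3ΔE16 and 4.6, 11.3 and 5.32 in DIDO3ΔCT+HADIDO3. Kcnq1ot1, the imprinted antisense RNA of the Kcnq1 domain, had 0.894, 0.877 and 0.769 TPM in WT, 1.9, 1.9 and 1.86 in DIDO3ΔE16 and 2.52, 2.69 and 2.95 in DIDO3ΔCT+HADIDO3. Ndn, an imprinted gene of the Prader-Willi region, had 11.9, 11.5 and 9.74 TPM in WT, 19.5, 21.7 and 22.4 in DIDO3ΔE16 and 18.1, 19.7 and 20.9 in DIDO3ΔCT+HADIDO3. Levels of Wnt6 and Ndn overlapped between the mutants, and those of Kcnq1ot1 did not. Thy1, a surface glycoprotein that also marks fibroblasts, had 19.4, 18.1 and 19.7 TPM in WT, 33.9, 29.6 and 32.3 in DIDO3ΔE16 and 52.2, 56.1 and 55 in DIDO3ΔCT+HADIDO3; it was the 1 higher gene of 16 in the feeder list, whose median difference was 0.99 in DIDO3ΔE16 and −0.95 in DIDO3ΔCT+HADIDO3. Bag3, a co-chaperone of the stress response, had 16.3, 14.9 and 18.8 TPM in WT, 29.3, 27.3 and 31.8 in DIDO3ΔE16 and 44.3, 51.4 and 45.8 in DIDO3ΔCT+HADIDO3. Tfcp2l1 and Klf5, both pluripotency factors, met the rule at features with 0.193% and 0.913% of the summed level of the gene. The most abundant feature of Tfcp2l1 had log2 differences of 0.46 and 0.43 and that of Klf5 0.13 and 0.68, under the threshold of 0.7, and the list of 26 pluripotency genes had median differences of 0.06 and −0.07. The intermediate filament gene Nefm and a feature of Ncam1 stayed below 2 TPM. Rpl39l, a testis-type ribosomal protein gene, had 1.88, 1.88 and 2.66 TPM in WT, 9.05, 7.88 and 7.72 in DIDO3ΔE16 and 26.4, 25.1 and 23.7 in DIDO3ΔCT+HADIDO3. Of 137 solute carriers 6 were higher (4.38%, below the 4.84% of all eligible genes), the most abundant being the citrate transporter Slc13a5 with 6.64, 5.46 and 6.73 TPM in WT, 19.3, 16.5 and 19.3 in DIDO3ΔE16 and 12, 14.9 and 14.5 in DIDO3ΔCT+HADIDO3. Rhox13, Cldn15 and Cyp2u1 were the single higher genes of the Mage, Xlr and Rhox, the claudin and the cytochrome P450 lists.

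Few higher features were of high level. Wiz, a zinc finger partner of the G9a methyltransferase, had 156, 176 and 157 TPM in WT, 319, 265 and 256 in DIDO3ΔE16 and 534, 542 and 582 in DIDO3ΔCT+HADIDO3. Dynlt1b, a dynein light chain, had 258, 268 and 262 TPM in DIDO3ΔCT+HADIDO3. The transcript uc008ojx.2 has no symbol and lies inside Dido1 on the same strand (chr2:180686711-180688819, of which 322 of 2109 bases fall in exons of Dido1). It had 42, 43.6 and 34.9 TPM in WT, 163, 153 and 152 in DIDO3ΔE16 and 163, 141 and 138 in DIDO3ΔCT+HADIDO3, so the mutants overlapped and exceeded WT in every library. Its log2 differences were 1.96 and 1.88, and the direct difference between the lines was 0.10 ± 0.09 (adjusted p = 0.42, limma, Benjamini-Hochberg adjusted). Another annotated end of Dido1 (uc008ojt.2), which shares bases with other Dido1 features and was therefore not eligible, had 4.90, 4.78 and 4.79 TPM in WT, 90.6, 96.0 and 81.6 in DIDO3ΔE16 and 8.64, 7.30 and 8.44 in DIDO3ΔCT+HADIDO3.

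The first 14 lower features with a symbol were ranked in the same way. Gc (chr5:89415511-89422080), the vitamin D-binding protein of plasma, had 3.5, 4.53 and 4.7 TPM in WT and was listed at 0 in all 6 mutant libraries. Serglycin (Srgn, chr10:62492428-62494865), a proteoglycan core protein of secretory granules, had 16.5, 16.8 and 18.3 TPM in WT, 4.26, 3.97 and 3.48 in DIDO3ΔE16 and 0.724, 0.514 and 1.01 in DIDO3ΔCT+HADIDO3. The Nodal inhibitor Lefty1 (chr1:180937976-180940401) had 83.6, 92.6 and 84.9 TPM in WT, 18.9, 23.3 and 18.7 in DIDO3ΔE16 and 18.9, 16.5 and 17.1 in DIDO3ΔCT+HADIDO3. Levels of Srgn did not overlap between the mutants, and those of Lefty1 did. Cubilin (Cubn), an endocytic receptor of visceral endoderm and kidney, had 9.59, 10.4 and 11.7 TPM in WT, 2.55, 2.67 and 2.29 in DIDO3ΔE16 and 0.909, 0.41 and 0.487 in DIDO3ΔCT+HADIDO3. Crisp1, a secreted protein of the epididymis, had 8.25, 5.58 and 4.27 TPM in WT, 1.39, 1.42 and 2.22 in DIDO3ΔE16 and was listed at 0 in all 3 DIDO3ΔCT+HADIDO3 libraries. The prolactin receptor Prlr had 1.24, 1.2 and 1.03 TPM in WT, 0.126, 0.19 and 0.292 in DIDO3ΔE16 and 0.139, 0.261 and 0.155 in DIDO3ΔCT+HADIDO3. Prlr was near 1 TPM in WT, where depth is thin, and Cubn and Crisp1 were lowest in DIDO3ΔCT+HADIDO3.

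Transcription factors and adaptors followed. Foxq1, a forkhead factor, had 7.29, 6.46 and 8.23 TPM in WT, 2.16, 2.12 and 2.85 in DIDO3ΔE16 and 0.915, 2.18 and 1.7 in DIDO3ΔCT+HADIDO3. Dok2, a docking adaptor of tyrosine kinases, had 20.6, 22.1 and 17.4 TPM in WT, 7.36, 6.74 and 6.25 in DIDO3ΔE16 and 4.3, 3.92 and 3.52 in DIDO3ΔCT+HADIDO3. Atp10a, a phospholipid flippase, had 5.37, 5.23 and 5.07 TPM in WT, 1.04, 1.7 and 1.19 in DIDO3ΔE16 and 1.21, 2.4 and 1.87 in DIDO3ΔCT+HADIDO3. Of these, Dok2 alone was called different between the lines (0.80 ± 0.13, adjusted p = 0.00737, Benjamini-Hochberg, limma), and its difference was 0.68 with 1 added to TPM. The other 5 of the first 14 are features with at most 23.1% of the summed level of their gene. Esrp1, an epithelial splicing regulator, had 17.1, 16.2 and 15.4 TPM at this feature in WT, 3.81, 4.66 and 4.83 in DIDO3ΔE16 and 3.94, 5.63 and 5.99 in DIDO3ΔCT+HADIDO3. The centrosomal gene Cep70 had 20.8, 17.2 and 18.5 TPM in WT, 7.38, 6.46 and 6.15 in DIDO3ΔE16 and 5.13, 6.32 and 6.73 in DIDO3ΔCT+HADIDO3. Patj, a polarity scaffold, Enpp3, an ectonucleotidase, and Ankrd33b were below 3 TPM at these features. A further feature of Enpp3 (uc007erb.1), with 64.2% of the summed level, was lower too, at 14.6, 14.8 and 14.4 TPM in WT, 4.82, 5.8 and 6.8 in DIDO3ΔE16 and 5.26, 5.88 and 5.79 in DIDO3ΔCT+HADIDO3. The most abundant feature of Esrp1 had log2 differences of −1.60 in DIDO3ΔE16 and −1.84 in DIDO3ΔCT+HADIDO3. That of Patj had −1.35 and −0.08, and that of Ankrd33b −0.52 and 0.92.

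Primitive endoderm was the list with the largest share of lower genes. Of 13 genes with an eligible feature, 10 were lower in both lines (76.9%) and 0 higher, against 1.14% of all eligible genes lower; the median log2 difference over the list was −0.97 in DIDO3ΔE16 and −1.23 in DIDO3ΔCT+HADIDO3. Among these 10 genes the collagen IV chains of basement membrane were the most abundant. Col4a1 (chr8:11196423-11199800) had 131, 131 and 143 TPM in WT, 66.4, 69.8 and 69.6 in DIDO3ΔE16 and 34, 38.5 and 38.9 in DIDO3ΔCT+HADIDO3, and Col4a2, which shares its promoter region head to head with Col4a1, had 78.9, 90.1 and 94.6 TPM in WT, 47.1, 43.6 and 48.5 in DIDO3ΔE16 and 23.2, 24.8 and 27 in DIDO3ΔCT+HADIDO3. Both were lower in steps, with DIDO3ΔCT+HADIDO3 below DIDO3ΔE16 by a direct log2 difference of 0.90 ± 0.06 for Col4a1 (adjusted p = 0.000414, by limma, after Benjamini-Hochberg) and 0.91 ± 0.07 for Col4a2 (adjusted p = 0.000746). The laminin chain Lama1 had 23.3, 23.6 and 22.8 TPM in WT, 12.9, 11.2 and 11.2 in DIDO3ΔE16 and 12.2, 12.1 and 12.2 in DIDO3ΔCT+HADIDO3, with no step between the mutants (direct difference −0.03 ± 0.08, adjusted p = 0.795, limma, Benjamini-Hochberg adjusted). Lamb1 is present through a feature with 13.7% of its summed level (uc007nhd.1), at 21.7, 22.8 and 23.8 TPM in WT, 13.1, 14.7 and 13.4 in DIDO3ΔE16 and 8.42, 8.82 and 7.86 in DIDO3ΔCT+HADIDO3.

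Transcription factors and receptors of this lineage were lower as well. Gata6, a GATA factor that specifies primitive endoderm, had 12.8, 12.3 and 13.6 TPM in WT, 3.75, 3.99 and 6.23 in DIDO3ΔE16 and 7.04, 6.29 and 7.6 in DIDO3ΔCT+HADIDO3 at its main feature (uc008ebk.1). Sox7, an SRY-box factor of the same lineage, had 9.1, 9.71 and 9.99 TPM in WT, 3.24, 4.79 and 4.72 in DIDO3ΔE16 and 4.14, 3.65 and 4.38 in DIDO3ΔCT+HADIDO3. Neither was called different between the lines. Dab2, an endocytic adaptor, is present through a feature with 39.8% of its summed level, which had 6.86, 7.82 and 7.66 TPM in WT, 3.97, 3.83 and 3.33 in DIDO3ΔE16 and 2.66, 4.21 and 3.73 in DIDO3ΔCT+HADIDO3. Summed over all its features, Dab2 had 7.91, 26.7 and 28.5 TPM in WT and 9.35, 9.75 and 9.66 in DIDO3ΔE16, so WT replicate 1 then lay below DIDO3ΔE16. Megalin (Lrp2), the partner receptor of cubilin, had 14.8, 14.4 and 15.8 TPM in WT, 8.89, 9.69 and 8.78 in DIDO3ΔE16 and 3.27, 3.67 and 3.82 in DIDO3ΔCT+HADIDO3. Of the 11 features of this list changed alike, 6 were called higher in DIDO3ΔE16 than in DIDO3ΔCT+HADIDO3 and 0 the other way, against 11.9% and 11.4% of all features tested. The lean is not particular to this list: of 90 lower features tested, 23 were higher in DIDO3ΔE16 and 5 in DIDO3ΔCT+HADIDO3. Srgn and Cubn had values below 1 TPM in DIDO3ΔCT+HADIDO3, where depth is thin. Of the 6 calls in this list that of Lamb1 was lost without DIDO3ΔE16 replicate 2 (0.68) or DIDO3ΔCT+HADIDO3 replicate 3 (0.66). The 3 genes that were not changed alike were Lamc1, of far higher level (log2 differences −0.09 and −0.24), Thbd (1.08 and −1.19) and Plat (−0.19 and 0.83). A separate marker list of 12 genes, which shares Gata6, Sox7, Dab2 and Cubn with these features, summed to 95.4 to 124 TPM in WT, 46.1 to 56.3 in DIDO3ΔE16 and 37.3 to 43.2 in DIDO3ΔCT+HADIDO3. Gata4 and Sox17, defining genes that have no feature changed alike, had 32.6, 32.0 and 36.4 TPM and 3.24, 2.38 and 3.38 TPM in WT, against 12.2, 13.8 and 14.8 and 1.12, 2.26 and 2.38 in DIDO3ΔE16 and 10.7, 11.5 and 12.0 and 0.574, 0.522 and 0.563 in DIDO3ΔCT+HADIDO3, summed over their features. Hnf4a, a nuclear receptor of visceral endoderm, went the other way, with 1.18, 1.34 and 1.05 TPM in WT, 7.63, 8.67 and 8.45 in DIDO3ΔE16 and 3.78, 3.95 and 4.13 in DIDO3ΔCT+HADIDO3. The part of such cells in these differences was not tested.

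Of 14 genes of the formative and primed state 3 were lower in both lines (21.4%, against 1.14% of all eligible genes) and 0 higher, with median log2 differences of −0.06 in DIDO3ΔE16 and −0.47 in DIDO3ΔCT+HADIDO3. Sox3 (1.73 and 0.22) and Foxd3 (1.49 and 0.44) of this list lay above WT. Of 19 Wnt genes 1 was lower and 2 were higher, of 14 FGF and ERK genes 1 was lower, and of 17 TGF-beta and BMP genes 0 were changed alike. Over all eligible genes 1.14% were lower and 4.84% higher, so nothing is read from these small counts. Lefty2, which like Lefty1 restrains Nodal, had 205, 206 and 175 TPM in WT, 30.3, 36.6 and 32.8 in DIDO3ΔE16 and 104, 98.6 and 91.7 in DIDO3ΔCT+HADIDO3, and was called lower in DIDO3ΔE16 than in DIDO3ΔCT+HADIDO3 (−1.54 ± 0.10, adjusted p = 0.000381, Benjamini-Hochberg, limma). The mutant groups of Lefty2 did not overlap, with DIDO3ΔE16 lowest. Car4, a carbonic anhydrase counted here with formative genes, had 11, 9.23 and 9.12 TPM in WT, 3.3, 3.52 and 3.71 in DIDO3ΔE16 and 0.927, 1.49 and 1.39 in DIDO3ΔCT+HADIDO3. The WNT inhibitor Dkk1 had 2.73, 1.29 and 2.2 TPM in WT, 0.795, 1.03 and 0.631 in DIDO3ΔE16 and 0.069, 0.165 and 0.131 in DIDO3ΔCT+HADIDO3. The immediate early gene Fos had 73.1, 63.5 and 74.8 TPM in WT, 32.2, 29 and 28.1 in DIDO3ΔE16 and 25.9, 31.7 and 32 in DIDO3ΔCT+HADIDO3. Car4 and Dkk1 were lowest in DIDO3ΔCT+HADIDO3, and the mutants overlapped at Fos. A minor feature of the receptor Fgfr2 and the homeobox gene Esx1, both from the trophoblast list, were at 1.05 to 2.25 TPM in WT. Dppa3 (Stella), a maternal-effect gene of ESC and germ cells, was the 1 lower gene of the pluripotency list, with 15.3, 17.2 and 15 TPM in WT, 7.44, 7.35 and 4.78 in DIDO3ΔE16 and 3.36, 3.85 and 3.7 in DIDO3ΔCT+HADIDO3. Trib3, a pseudokinase induced by amino acid stress, had 79.8, 79.8 and 86 TPM in WT, 41.6, 47.6 and 52.1 in DIDO3ΔE16 and 39.3, 37.4 and 38.4 in DIDO3ΔCT+HADIDO3, and the matrix receptor Itga1 had 5.05, 4.42 and 3.74 TPM in WT, 1.17, 1.64 and 1.6 in DIDO3ΔE16 and 1.91, 1.62 and 2.0 in DIDO3ΔCT+HADIDO3.

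Neural genes were found on both sides, with 3 lower and 2 higher of 15 (20.0% and 13.3%, against 1.14% and 4.84% of all eligible genes), and the list had median log2 differences of 0.06 in DIDO3ΔE16 and 0.36 in DIDO3ΔCT+HADIDO3. Sox1, a neural marker that was not changed alike, had 9.43, 7.77 and 8.10 TPM in WT, 35.6, 32.7 and 34.6 in DIDO3ΔE16 and 11.4, 12.4 and 12.4 in DIDO3ΔCT+HADIDO3, summed over its features. Sox11, an SRY-box factor of neural progenitors, had 58.4, 50.4 and 51.4 TPM in WT, 31.7, 33 and 32.4 in DIDO3ΔE16 and 18.4, 19.4 and 23.2 in DIDO3ΔCT+HADIDO3. Nefl, the light neurofilament chain, had 42.7, 43.8 and 41.3 TPM in WT, 25.3, 24.6 and 25.9 in DIDO3ΔE16 and 21.1, 19.5 and 23 in DIDO3ΔCT+HADIDO3. Ina, the neuronal intermediate filament internexin, had 66.8, 71.2 and 58 TPM in WT, 31.2, 39.9 and 36.8 in DIDO3ΔE16 and 27.8, 23.6 and 25.2 in DIDO3ΔCT+HADIDO3. In all 3 genes the mutant groups did not overlap and DIDO3ΔCT+HADIDO3 was lowest, but none was called different between the lines. Slc40a1, the iron exporter ferroportin, and the sodium/proton exchanger Slc9a7 were the lower solute carriers, and a feature with 1.32% of the level of Pcgf3 was the 1 lower entry of the Polycomb list.

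**Figure D5:**
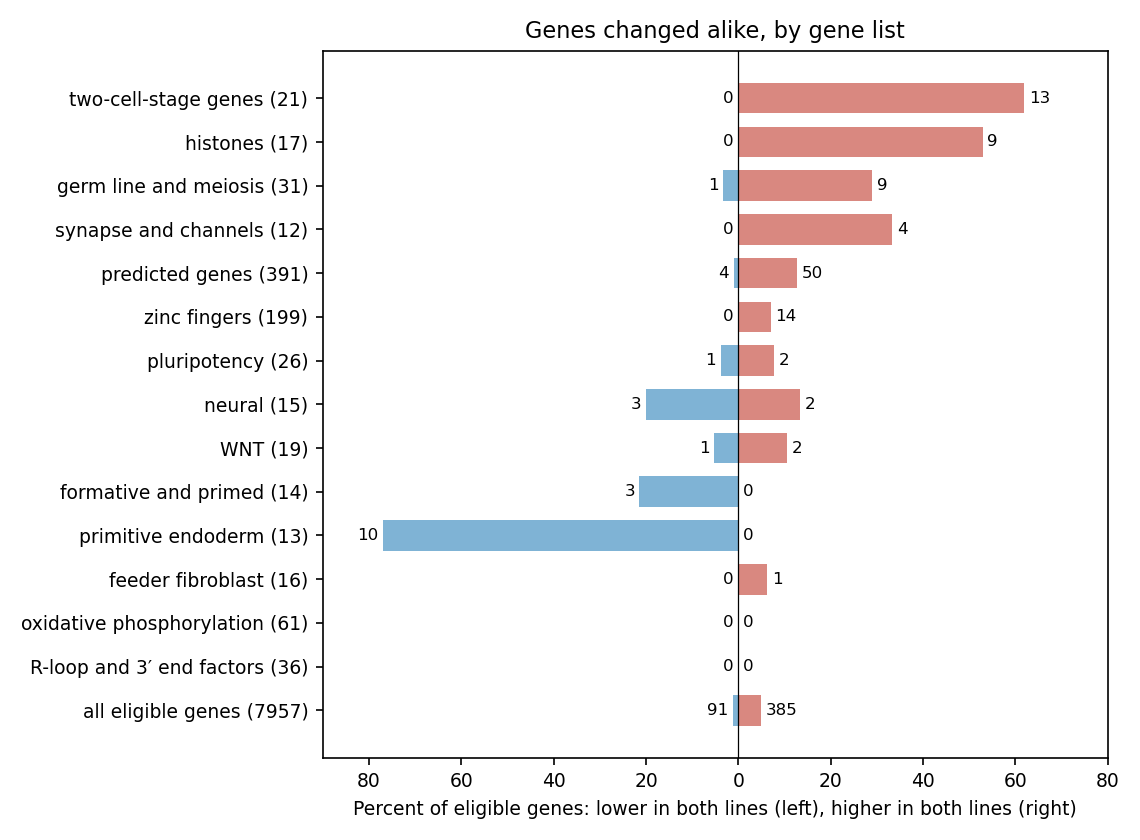
Percent of eligible genes of each list (their number in parentheses) that were lower (left, blue) or higher (right, red) in both lines, with the number of genes beside each bar. The two-cell-stage list (13 of 21) and the primitive endoderm list (10 of 13) have the largest shares to the right and to the left; over all eligible genes 385 of 7957 were higher and 91 lower.

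Some lists held no gene changed alike. They include 61 genes of oxidative phosphorylation, 36 of R-loop and 3′ end processing, 23 of glycolysis and hypoxia, 18 of lysosome and autophagy, 17 of TGF-β and BMP signalling, 16 of interferon response and antigen presentation, 14 p53 targets and 13 of cholesterol synthesis. Over all 7957 eligible genes 4.84% were higher and 1.14% lower. At these shares a short list would hold few such genes, so nothing is read from a 0.

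The 5 lower features of highest level were those of Bend4, Ubald2, Pwp1, Glipr2 and Atp6v1f. Bend4, a BEN domain gene, had 625, 626 and 584 TPM in WT, 114, 114 and 117 in DIDO3ΔE16 and 286, 279 and 283 in DIDO3ΔCT+HADIDO3, and was called lower in DIDO3ΔE16 than in DIDO3ΔCT+HADIDO3. Glipr2, a Golgi-associated protein, had 263, 253 and 259.8 TPM in WT, 116, 132 and 131 in DIDO3ΔE16 and 69.7, 73.1 and 68 in DIDO3ΔCT+HADIDO3, with the opposite order of the mutants. Ubald2, a UBA-like domain gene, had 584, 648 and 335 TPM in WT, 231, 209 and 211 in DIDO3ΔE16 and 280.0, 302 and 286 in DIDO3ΔCT+HADIDO3. WT replicate 4 of Ubald2 lay far below the other WT libraries. Single libraries also stood apart at Pwp1, a WD-repeat gene of ribosome biogenesis, with 280.2, 285 and 274 TPM in WT, 134, 137 and 139 in DIDO3ΔE16 and 106, 108 and 228 in DIDO3ΔCT+HADIDO3. The proton pump subunit Atp6v1f had 215, 226 and 238 TPM in WT, 89.5, 95.6 and 93.5 in DIDO3ΔE16 and 110.0, 112 and 196 in DIDO3ΔCT+HADIDO3, and in both genes replicate 3 of DIDO3ΔCT+HADIDO3 was closest to WT.

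The lines were then compared directly, without WT libraries, to ask where features changed alike differed in size. Of 24883 features tested with limma, 23.2% were called (absolute log2 difference of at least 0.7 and Benjamini-Hochberg adjusted p under 0.05), and 31.6% of the eligible features tested. Of the 407 higher features 160 were called (39.3%), 102 higher in DIDO3ΔE16 and 58 higher in DIDO3ΔCT+HADIDO3, against 11.9% and 11.4% of all features tested by direction. Of 90 lower features tested 28 were called (31.1%), 23 higher in DIDO3ΔE16 and 5 higher in DIDO3ΔCT+HADIDO3. The remaining 6 lower features had a 0 in a mutant library and were not tested. Of the higher features 82 did not exceed 1 TPM in every library of both lines, among them Espnl, Klhl30, Palmd and Creg2, so their difference between the lines was in part set by the minimum level. Among the other 325 higher features 109 were called (33.5%, 68 higher in DIDO3ΔE16 and 41 in DIDO3ΔCT+HADIDO3), and among the 63 lower features above 1 TPM in both lines 17 were called (27%), against 26.3% of the eligible features above 1 TPM in both lines. By direction, 11.1% of those eligible features were higher in DIDO3ΔE16 and 15.2% in DIDO3ΔCT+HADIDO3. The shares were 20.9% and 12.6% for these higher features and 20.6% and 6.35% for these lower features. Mutant levels also entered the rule, so these shares are read beside the background and not as a test of the set. Of the features not called, 231 higher and 57 lower ones had an absolute direct difference below 0.7, and a p that misses the threshold does not show equal levels.

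Olig1, a bHLH factor of oligodendrocytes, was lower in both lines and by far lowest in DIDO3ΔCT+HADIDO3, with 102, 111 and 103 TPM in WT, 55.1, 55 and 58.3 in DIDO3ΔE16 and 2.97, 3.65 and 4.13 in DIDO3ΔCT+HADIDO3 (difference 3.96 ± 0.12, adjusted p = 7.40e-05, by limma, after Benjamini-Hochberg). Its neighbour and relative Olig2 had 86.1, 96 and 86 TPM in WT, 44.3, 48.2 and 57.8 in DIDO3ΔE16 and 0, 0.143 and 0.059 in DIDO3ΔCT+HADIDO3, and was not tested because of a 0. Olig2 is named after its values were seen. Espnl, an espin-like actin-bundling gene of hair cells, and its neighbour Klhl30 were also higher in DIDO3ΔE16, by 3.44 ± 0.32 and 2.79 ± 0.33. Both exceeded 1 TPM throughout DIDO3ΔE16 alone, so these differences were in part set by the minimum level and carry no p-value here. Palmd (palmdelphin), listed at 0 in all WT libraries at this feature, had 2.23, 1.94 and 1.93 TPM in DIDO3ΔE16 and 0.194, 0.102 and 0.084 in DIDO3ΔCT+HADIDO3.

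In the other direction, the transcript uc007avm.2 on chromosome 1 (no symbol) had 0.621, 0.737 and 0.07 TPM in WT, 1.05, 1.59 and 1.25 in DIDO3ΔE16 and 37.6, 36 and 32.3 in DIDO3ΔCT+HADIDO3 (−4.66 ± 0.17, adjusted p = 0.000108, Benjamini-Hochberg, limma). The predicted gene C030037D09Rik had 0.718, 0.855 and 0.741 TPM in WT, 1.4, 1.43 and 1.4 in DIDO3ΔE16 and 23.2, 26.1 and 30.1 in DIDO3ΔCT+HADIDO3. Creg2, a secreted glycoprotein gene of brain next to Rfx8 on chromosome 1, had 0, 0.138 and 0.077 TPM in WT, 0.523, 0.238 and 0.429 in DIDO3ΔE16 and 5.89, 6.63 and 6.75 in DIDO3ΔCT+HADIDO3. For all 3 and for Tex13b, the mean DIDO3ΔCT+HADIDO3 level exceeded the DIDO3ΔE16 level by more than 1 order of magnitude. Wscd1, at a feature with 26.1% of its summed level, was lower in both lines, with 8.17, 8.5 and 7.12 TPM in WT, 0.67, 0.322 and 0.484 in DIDO3ΔE16 and 3.8, 4.74 and 5.41 in DIDO3ΔCT+HADIDO3.

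A gene can have several 3′ ends, and 77 higher and 23 lower features were not the most abundant feature of their gene. Among features with a symbol, 80.5% of the higher and 75.5% of the lower ones were the most abundant, against 73.7% of those eligible. The most abundant feature was sought among all features of a gene, also those that share bases and were not eligible. In 27 of the 77 and 4 of the 23 the most abundant feature of the gene was past 0.7 in both lines in the same direction. It was within 0.35 of WT in both lines in 7 and 1, and on the other side of WT in both lines in 8 and 2. Cep70 has ends on both sides of WT: its most abundant feature (uc009rdy.1) differed from WT by 0.30 in DIDO3ΔE16 and 0.82 in DIDO3ΔCT+HADIDO3, while the feature changed alike differed by −1.48 and −1.62. Dazl was higher at both ends, with 1.13 and 1.05 at its most abundant feature. In Ppp2r5e, a phosphatase regulatory subunit, the most abundant feature differed by 0.06 and 0.01, while the feature changed alike differed by 1.22 and 0.99. Cep70 and Ppp2r5e are shown here because of these values.

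Annotated properties of the features were also set beside those of all eligible features, with no test. The median length was 2646 bases (higher) and 2839 (lower), against 2791. A base shared with a feature on the opposite strand was found in 9.58% and 9.38%, against 15.1%. Bases in same-strand exons of another gene were found in 6.39% and 1.04%, against 8.37%. Protein-coding genes made up 94.2% and 98.9%, against 98.5%. Chromosome X held 2.21% and 2.08%, against 3.18%, and chromosome 13 had the largest share of higher features, 25 of 353 eligible (7.08%). Promoters with fewer than 5 CpG were 18.1% of those of higher genes and 15.1% of those of lower genes, against 9.46% for eligible genes and 38% for all genes.

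At the threshold, the last higher features inside were Slc2a5, the fructose transporter GLUT5 (0.70 and 1.25), and the kinase gene Matk (1.05 and 0.70), and the last lower ones were the isoprenoid synthase Ggps1 (−0.71 and −0.93) and 1500011B03Rik (−0.70 and −0.86). Just outside were Acad10 (0.70 and 1.4) and Ldhal6b (0.70 and 0.74) above WT, and the main feature of Lamb1 (−0.69 and −1.43) and Cldn9 (−0.69 and −1.29) below it. Against the WT library of the mutants' flow cell family, 351 of the 407 higher features (86.2%) differed by 0.7 or more in both lines. Of the 96 lower features 89 (92.7%) did. That library had also entered the rule, so these shares are in part set by the choice of features and are no test.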

How the data were processed

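RNA-seq of mouse ESC was analysed from 9 tables of transcript levels, 1 per library. Per the file headers and the study's methods, the authors mapped reads with BWA 0.7.15 to mm10, removed duplicates with Picard and estimated levels with StringTie 1.3.3 on the 3′UTRs of UCSC transcripts extended by 2 kb. The command in the headers sets no strand option, so reads of overlapping genes on opposite strands may not be told apart. The authors deposited TPM, which was used here as given, and a mean coverage per base, which was used for depth only. TPM keeps no depth, so no count test was run, and limma took the place of the count-based test of the study. The table that matches both WT replicate 2 and WT replicate 3 was counted as 1 library.

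Features changed alike were found on log2(TPM + 0.1) with a threshold of 0.7, with no further scaling, and the lists and members were chosen with earlier results of these data known. The lines were compared with limma 3.58.1 in R 4.3.3 (trend and robust options, two-sided, group as the only term) over all features with TPM above 0 in the 6 mutant libraries, after scaling each library to a trimmed mean (30% from each end), with Benjamini-Hochberg adjustment over all features tested. A call needed an adjusted p under 0.05 and an absolute log2 difference of at least 0.7. The same test against WT called 12.6% of features in DIDO3ΔE16 and 13.9% in DIDO3ΔCT+HADIDO3. An exact permutation test of 3 against 3 libraries cannot go below p = 0.1 and was not used. On simulated data with 5 sets of 200 changed features among 24883, the comparison of the lines recovered 34.8% of changes of 1 and 58.4% of changes of 2 on the log2 scale, with a mean of 7.4 false calls.

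Named genes were the first 14 of each direction by the smaller of both differences, members of 36 gene lists, the 5 of highest mean TPM in each direction, the 5 largest direct differences each way, members of runs in steps of 200 kb and those at the threshold; genes outside this rule are marked as such. A few genes under the rule are not reported here. Promoters came from RefSeq (GRCm38.p6). Tables were handled with Python 3.11.15, numpy 2.4.6 and pandas 2.3.3. Alternatives covered the pseudocount, TPM minimum, threshold, scaling, overlap rule, flow cell family, replicate block and each library left out. Exon usage and ChIP-seq were not analysed here.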

Additional observations from a re-analysis of the deposited data

Results flagged for a closer look

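Some features changed alike relative to WT differed between the lines themselves by limma with Benjamini-Hochberg adjustment. Among higher features, 102 were higher in DIDO3ΔE16 and 58 in DIDO3ΔCT+HADIDO3. Among lower features, 23 were higher in DIDO3ΔE16 and 5 in DIDO3ΔCT+HADIDO3. Of all features tested, 11.9% were called higher in DIDO3ΔE16 and 11.4% in DIDO3ΔCT+HADIDO3. For eligible features above 1 TPM in every library of both lines, the shares were 11.1% and 15.2%. In all, 39.3% of the higher and 31.1% of the lower features tested were called, against 31.6% of the eligible features tested. Large log2 differences of DIDO3ΔE16 minus DIDO3ΔCT+HADIDO3 above 0 included those of Olig1 (3.96), Espnl (3.44), Palmd (3.26) and Klhl30 (2.79). The largest below 0 were those of uc007avm.2 (−4.66), C030037D09Rik (−4.11), Creg2 (−3.74), Tex13b (−3.56) and Wscd1 (−3.01). Apart from Olig1, Wscd1 and Tex13b, these features had less than 1 TPM in every WT library. Espnl, Palmd, Klhl30 and Creg2 exceeded 1 TPM throughout 1 line alone, so their differences were in part set by the minimum level. Single libraries far from the others of their group were not tested for, since the groups hold 3 libraries each.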

How the results depend on the processing

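The 407 higher features became 221 with 1 added to TPM, 186 with a minimum of 5 TPM and 251 at a threshold of 1, and the 96 lower features became 48 at a threshold of 1. With a trimmed-mean scaling the counts were 362 and 114. Leaving out 1 library gave 410 to 457 higher and 91 to 110 lower features. Between the lines 188 features were called, and 155 to 173 with 1 library left out, some of them not among the 188. Among features above 1 TPM in every library of both lines, a setting chosen after seeing the data, 126 were called. Over all features, limma called 3119 in DIDO3ΔE16 and 3430 in DIDO3ΔCT+HADIDO3 against WT, and 2534 to 2843 and 2915 to 3301 with 1 library left out. The same replicate numbers did not pair the samples (correlations of deviations 0.026, −0.008 and −0.015); with the replicate number as a block, 141 features were called between the lines. No called difference reversed, although some direct differences under the threshold changed sign, such as that of Tmem181b-ps without DIDO3ΔE16 replicate 2. Of 406 values of named features relative to WT, 262 moved by more than 1 SD with the pseudocount of 1, 122 with WT replicate 2/3 alone, 54 with the pseudocount of 0.01 and 26 with trimmed mean scaling. Leaving out 1 of 3 libraries cannot move a mean by 1 SD. Over all alternatives, named features lost 75 calls between the lines and gained 26. The causes were not tested. At 1 TPM the coverage was at most 0.775, which limits most features that were near 0 in WT.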

Other observations

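The rule's opposite case was also counted. Of the eligible features, 238 (2.51%) were higher in DIDO3ΔE16 and lower in DIDO3ΔCT+HADIDO3, and 134 (1.41%) the reverse, against 503 (5.30%) changed alike. Both differences share the WT libraries. Among the transcripts without a symbol changed alike, uc009kjf.1 lies inside B4galnt4 and had 64.0, 60.3 and 64.2 TPM in WT, 118, 122 and 124 in DIDO3ΔE16 and 111, 113 and 120.4 in DIDO3ΔCT+HADIDO3. It was chosen after its values were seen.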
